A study of Mus musculus with 6 samples.

Results

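Macrophages are the main resident immune cells of the islets of Langerhans, the clusters of hormone-secreting cells in the pancreas. Described here are 10 genes that such cells express, picked by name out of the 53670 rows of a table of read counts: the growth factor receptor gene Csf1r, the endolysosomal and leukocyte membrane protein genes Cd68 and Laptm5, the lysozyme gene Lyz2, the endotoxin co-receptor gene Cd14, the complement genes C1qa, C1qb and C1qc, the mannose receptor gene Mrc1 and the integrin gene Itgam. All 10 were in the table and all 10 had enough counts to be tested. The RNA came from islets isolated from mice aged 6 weeks, in 3 WT libraries (Paupar +/+) and 3 KO libraries (Paupar -/-). Paupar is a long noncoding RNA gene beside the transcription factor gene Pax6, and the comparison asks how islet transcripts differ without it. Libraries of a group differed by more than counting noise (chi-square per degree of freedom 25.0 to 81.8). The labels give neither the strain nor the sex, do not say how the KO allele was made or in which cells it acts, and do not say whether a library held the islets of 1 mouse or of several. If replicates are not separate animals, the p-values below reflect the spread between libraries alone, and that spread may be technical.

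As background, a tissue macrophage depends on signals through the CSF1 receptor for its survival, takes up dying cells and microbes through surface receptors, and breaks them down in lysosomes with enzymes that include lysozyme. Complement C1q, which tags such targets, is built from the A, B and C chains, and macrophages are a major source of it. In mice, macrophages that lie inside the islet are known to express lysozyme and the integrin alpha X gene Itgax, while macrophages of the surrounding exocrine stroma include cells with the mannose receptor.

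Libraries held 25733194 to 27285009 counts. Values in sets of 3 follow replicates 1 to 3 of a genotype throughout. For Paupar they were 177, 252 and 111 counts (WT) and 4, 0 and 4 counts (KO), which matches the labels. The tissue label also held: a list of 10 endocrine genes, among them Ins1, Ins2 and Gcg, summed to 272016 to 333364 CPM (counts scaled to the library total and, between libraries, by edgeR's TMM factors, as all CPM below). Exocrine tissue was present too, with 12 acinar genes, among them Prss2 and Try5, at 22268 to 70208 CPM in WT and 16198 to 43258 CPM in KO, highest in WT replicate 1. The female-specific noncoding RNA Xist had 1, 6 and 3 counts (WT) and 0, 1120 and 862 counts (KO), so KO replicates 2 and 3 differed from the other 4 libraries in sex. With only KO replicate 1 sharing the sex of the WT libraries, sex and genotype cannot be fully told apart.

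For the macrophage genes together, the difference between genotypes was smaller than the spread within either genotype. They took 0.0150% to 0.0217% of the counts in WT and 0.0154% to 0.0280% in KO, a mean of 0.0192 ± 0.00365% (SD, n = 3) against 0.0216 ± 0.00632% (SD, n = 3), so the ranges overlapped. In such bulk samples, fewer macrophages and less RNA per macrophage cannot be told apart. In edgeR's quasi-likelihood test across 15915 genes with Benjamini-Hochberg adjustment, 0 of the 10 genes passed an adjusted p below 0.05. Of all tested genes 0.170% passed that threshold, all of them lower in KO, so no gene was called higher. Of the 10 genes, 0 had an unadjusted p below 0.05, against 16.4% of all tested genes. The latter count depended on single libraries: 2 genes had an unadjusted p below 0.05 without WT replicate 3 (Csf1r and C1qc, against 20.7% of tested genes) and 2 without KO replicate 3 (Mrc1 and Itgam, against 12.5%), while 0 of the 10 passed the adjusted threshold in either case. limma-voom also called 0 of the 10, but it called 0 of all tested genes. DESeq2 called 0 of the 6 for which it gave an adjusted p, against 4.70% of all genes with one. It gave none for Cd68, Cd14, Mrc1 and Itgam. None had KO libraries all above or all below the WT libraries, where 23.4% of all tested genes did. The fitted log2 fold change of KO over WT was positive for 9 of the 10, with a median of 0.33, beside a median of 0.0023 over all tested genes. That median rested on single libraries: it was 0.10 without WT replicate 1, 0.58 without WT replicate 3 and 0.52 without KO replicate 3, and with sex as a covariate, which leaves KO replicate 1 against the WT libraries, it was 0.56.

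**Figure D1:**
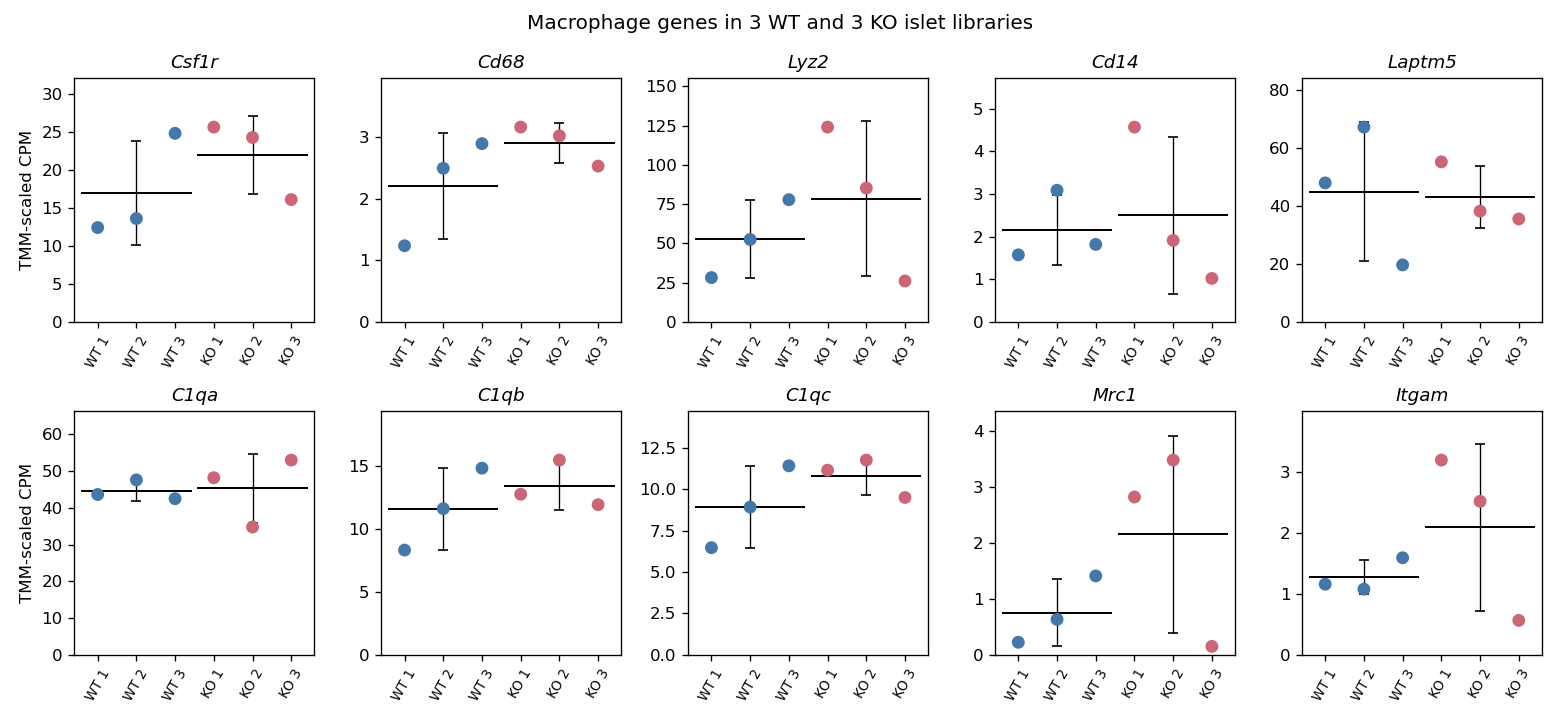
Level of each of the 10 macrophage genes in TMM-scaled CPM (y axis, from 0) in the 6 islet libraries (x axis). Points are libraries, blue for WT and red for KO, lines are group means and bars are ± 1 SD over 3 libraries. In every panel the WT and KO points overlap, and KO replicate 3 lies below the other KO libraries in 9 of 10 panels, all but that of C1qa.

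Csf1r encodes the receptor for the ligands CSF1 and IL-34, on which tissue macrophages depend. It stood at 12.4, 13.6 and 24.8 CPM in the WT libraries and at 25.7, 24.3 and 16.1 CPM in the KO libraries. WT replicate 3 thus lay with KO replicates 1 and 2, and KO replicate 3 lay between the WT libraries. KO over WT was 0.38 on the log2 scale (SE 0.30, adjusted p = 0.579), with a 95% interval of -0.33 to 1.08. It was 0.77 without WT replicate 3 (adjusted p = 0.135) and 0.20 without WT replicate 1. The last 871 bp of Csf1r, on chromosome 18, overlap Hmgxb3 on the other strand, and whether the counting used strand is not given, so reads there may have been dropped or shared. Hmgxb3 itself varied little, by at most 1.21-fold between the libraries.

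The ligands of this receptor did not pass the test either. Csf1 averaged 14.7 ± 3.96 CPM in the WT and 15.5 ± 1.52 CPM in the KO libraries (SD, n = 3 each; log2 fold change 0.08, SE 0.20), and Il34 was at 1.38 ± 0.408 and 1.46 ± 0.617 CPM (0.08, SE 0.38). In a list of 11 tested ligands, related receptors and transcription factors around the receptor, the median log2 fold change was -0.02. EdgeR called 0 of them in either direction, against 0.170% of all tested genes. At an unadjusted p below 0.05 in edgeR, 0 were higher and 1 was lower in KO, against 16.4% of all tested genes in either direction. Spi1, which encodes PU.1, the master transcription factor of myeloid cells, was at 5.16 ± 1.75 and 4.19 ± 1.19 CPM (-0.30, SE 0.32).

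Cd68 (mm9 chromosome 11, 69477715 to 69479655) encodes a heavily glycosylated protein of endosomes and lysosomes. Its level stood at 1.23, 2.49 and 2.89 CPM in the WT libraries and at 3.16, 3.02 and 2.53 CPM in the KO libraries. WT replicate 1 was low and the other 5 libraries lay within a narrow band (log2 fold change 0.39, SE 0.33, adjusted p = 0.597). Without WT replicate 1 the fold change was 0.11 and without WT replicate 3 it was 0.65. These levels rest on 33 to 83 counts per library.

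Lyz2 (chromosome 10, 116714390 to 116719377), lysozyme of myeloid cells and the locus that carries a widely used myeloid Cre, had the widest swing among the 4 members with the highest levels per length. It was at 28.2, 52.5 and 77.8 CPM in the WT libraries and at 124, 85.2 and 26.0 CPM in the KO libraries. The KO libraries therefore held both the highest and the lowest value of all 6, 4.77-fold apart. The fitted difference was 0.57 on the log2 scale (SE 0.57, adjusted p = 0.663), with an interval of -0.78 to 1.92. It was 0.074 without KO replicate 1, 0.99 without KO replicate 3 and 1.23 with sex as a covariate. Lyz1, a close copy that lies next to Lyz2 on chromosome 10 and can share its reads, held 7.02%, 6.53%, 6.78%, 7.67% and 6.96% as much as Lyz2 in WT replicates 2 and 3 and KO replicates 1 to 3, but 1.72% in WT replicate 1. How reads common to both copies were assigned is not known, so either level is uncertain.

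Mrc1 (chromosome 2, 14151041 to 14253684), a lectin receptor for mannosylated glycoproteins, and Itgam (chromosome 7, 135206154 to 135271674), the alpha M chain that pairs with Itgb2 to form complement receptor 3, were the rarest members and the most uneven. Mrc1 was at 0.224, 0.632 and 1.41 CPM in the WT libraries and at 2.82, 3.48 and 0.151 CPM in the KO libraries, from 6, 17, 38, 74, 91 and 4 counts. KO replicates 2 and 3, which are alike in sex and genotype, were the highest and the lowest library, 23.0-fold apart. Its log2 fold change of 1.501 was the largest of the 10 and also had the largest error (SE 1.002, adjusted p = 0.509), with an interval of -0.87 to 3.87. Itgam was likewise lowest in KO replicate 3 and highest in the other KO libraries, at 1.16, 1.08 and 1.59 CPM in the WT libraries and at 3.20, 2.52 and 0.566 CPM in the KO libraries (0.71, SE 0.57, adjusted p = 0.585). Leaving out a library moved Mrc1 between 0.97 (without KO replicate 2) and 2.33 (without WT replicate 3), and Itgam between 0.27 (without KO replicate 1) and 1.16 (without KO replicate 3). In both genes KO replicates 1 and 2 lay above all WT libraries and KO replicate 3 below them, so the KO group enclosed the WT group. Itgb2, which all leukocytes express, averaged 10.6 ± 4.47 CPM in the WT and 10.6 ± 4.46 CPM in the KO libraries.

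Mrc1 spread more widely than Csf1r, 23.0-fold against 2.07-fold between the libraries, although the 2 genes moved partly together (Pearson's r = 0.85, n = 6). As a share of the Csf1r level, Mrc1 was 1.81%, 4.64% and 5.67% in the WT libraries and 10.98%, 14.3% and 0.937% in the KO libraries. Timd4, a phagocytic receptor of some long-lived tissue macrophages, was low in the same libraries, at 0.299, 1.26 and 3.74 CPM in the WT libraries and at 3.05, 4.51 and 0.264 CPM in the KO libraries. Timd4 was singled out after its values were seen. Stromal genes moved in part along with this. A list of 10 stellate cell and fibroblast genes, all tested, summed to 211 to 341 CPM in WT and 269 to 370 CPM in KO, lowest in WT replicate 1. None was called by edgeR, against 0.170% of all tested genes. Rgs5 made up the largest part of that sum, at 128, 111 and 147 CPM (WT) and 197, 155 and 163 CPM (KO). Col1a1 was at 9.05, 13.3 and 25.5 CPM (WT) and 12.4, 25.0 and 6.26 CPM (KO). Col1a2 was at 18.6, 28.0 and 35.9 CPM (WT) and 27.6, 37.4 and 14.4 CPM (KO). Both were lowest in KO replicate 3 and next lowest in WT replicate 1, but Acta2 was highest in KO replicate 3. The part of stromal cells in the result was not tested.

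Promoters of Lyz2 and Mrc1 are shown because these genes were high and low in the same libraries. Both windows come from RefSeq on GRCm38.p6, run from 250 bases before to 50 after the gene start and are written 5′ to 3′ on the gene's strand, Lyz2 at chr10:117282223-117282522 on the minus strand and Mrc1 at chr2:14229164-14229463 on the plus strand. Capitals mark the letters GAGGAA, the core of many PU.1 binding sites, or their reverse complement TTCCTC.
Lyz2: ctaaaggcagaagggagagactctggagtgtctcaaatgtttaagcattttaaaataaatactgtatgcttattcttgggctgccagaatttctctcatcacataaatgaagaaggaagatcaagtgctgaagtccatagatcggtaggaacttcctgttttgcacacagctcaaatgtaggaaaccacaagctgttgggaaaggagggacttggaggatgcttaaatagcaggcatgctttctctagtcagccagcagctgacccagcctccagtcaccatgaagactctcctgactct
Mrc1: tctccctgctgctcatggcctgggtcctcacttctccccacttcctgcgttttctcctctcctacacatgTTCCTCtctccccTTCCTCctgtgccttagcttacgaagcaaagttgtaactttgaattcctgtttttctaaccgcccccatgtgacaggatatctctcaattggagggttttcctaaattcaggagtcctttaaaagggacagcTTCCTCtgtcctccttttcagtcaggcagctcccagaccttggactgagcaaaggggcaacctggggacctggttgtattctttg
The Mrc1 window held these letters 3 times and the Lyz2 window 0 times, which says nothing of binding. Windows of 7 of the 10 genes were searched, and those of Csf1r, Cd14 and C1qa were not. Of the 7 searched, 6 held the letters at least once, against 28.3% of 32851 promoter windows of the same length. The share among all 10 genes is therefore not known.

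Cd14 encodes the co-receptor that hands bacterial endotoxin to the TLR4 complex. It was at 1.57, 3.09 and 1.82 CPM in the WT libraries and at 4.57, 1.91 and 1.02 CPM in the KO libraries. KO replicate 1 and WT replicate 2 were high, and KO replicate 3 was the lowest of all. As a log2 fold change the difference was 0.21 (SE 0.55, adjusted p = 0.886), and without KO replicate 1 it was -0.56. Its partners were not called either: Tlr4 averaged 1.82 ± 0.162 CPM in the WT and 2.07 ± 0.503 CPM in the KO libraries, and Ly96, which encodes the endotoxin-binding partner of TLR4, was at 5.58 ± 0.255 and 5.97 ± 0.636 CPM. Among 10 tested genes of this pathway edgeR called 0, with a median log2 fold change of 0.03. At an unadjusted p below 0.05 in edgeR there were 0, against 16.4% of all tested genes.

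The 3 C1q chain genes lie side by side within 18675 bp on chromosome 4 (mm9, 136436044 to 136454718, minus strand, order C1qb, C1qc, C1qa), yet of the 3 only C1qb and C1qc kept a near-constant proportion. C1qb was at 8.34, 11.6 and 14.9 CPM in the WT libraries and at 12.8, 15.5 and 12.0 CPM in the KO libraries. C1qc was at 6.47, 8.92 and 11.4 CPM in the WT libraries and at 11.2, 11.8 and 9.50 CPM in the KO libraries. The ranking of the 6 libraries was identical for both genes, and the C1qb level was 1.15 to 1.32 times the C1qc level in all 6. Neither passed the test (log2 fold change 0.21, SE 0.22, adjusted p = 0.676 for C1qb, and 0.27, SE 0.21, adjusted p = 0.570 for C1qc). Without WT replicate 1 these were 0.023 and 0.093, and without WT replicate 3 they were 0.44 and 0.50.

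C1qa did not follow them. It was at 43.7, 47.6 and 42.5 CPM in the WT libraries and at 48.2, 34.8 and 53.0 CPM in the KO libraries, the narrowest range of the 10 genes (1.52-fold). KO replicate 2, the highest library for C1qb and C1qc, was the lowest for C1qa. The ratio of C1qa to C1qb per exonic length therefore ran from 5.47 in WT replicate 1 to 2.35 in KO replicate 2. The log2 fold change of C1qa was 0.02 (SE 0.15, adjusted p = 0.958), with an interval of -0.34 to 0.39. No annotated gene overlaps C1qa in GENCODE vM1.

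**Figure D2:**
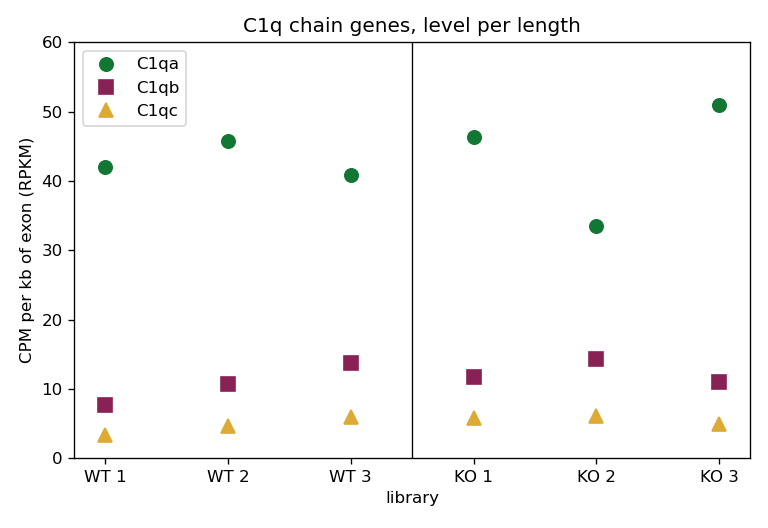
Level of the C1q chain genes in CPM per kb of exon (y axis, from 0) in the 6 islet libraries (x axis, WT left and KO right of the line), 1 symbol per gene. C1qa lies at 33.5 to 51.0 in all libraries, while C1qb (7.67 to 14.3) and C1qc (3.35 to 6.09) rise and fall together below it.

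Promoter windows of C1qb and C1qc are shown, as those of the pair that kept its proportion, from RefSeq on GRCm38.p6 with the same marking. They lie at chr4:136886151-136886450 and chr4:136892865-136893164, both on the minus strand.
C1qb: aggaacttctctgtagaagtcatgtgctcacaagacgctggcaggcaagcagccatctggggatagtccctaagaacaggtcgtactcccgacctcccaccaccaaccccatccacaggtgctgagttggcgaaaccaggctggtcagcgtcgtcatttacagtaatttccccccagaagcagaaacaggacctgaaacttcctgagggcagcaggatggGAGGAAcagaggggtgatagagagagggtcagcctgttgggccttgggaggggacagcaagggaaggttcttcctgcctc
C1qc: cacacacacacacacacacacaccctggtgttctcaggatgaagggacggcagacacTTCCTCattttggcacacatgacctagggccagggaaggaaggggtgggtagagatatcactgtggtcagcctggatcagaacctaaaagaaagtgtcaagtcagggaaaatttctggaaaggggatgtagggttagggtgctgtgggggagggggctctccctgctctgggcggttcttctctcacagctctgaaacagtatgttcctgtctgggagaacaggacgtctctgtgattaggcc
Each window held the marked letters 1 time, on the gene's strand as GAGGAA in C1qb and as the reverse complement in C1qc.

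Around C1q, the other complement genes were not called either. Of 12 tested proteases, later components, inhibitors and receptors, edgeR called 0, and the median log2 fold change was 0.05. In edgeR 1 was higher and 0 were lower in KO at an unadjusted p below 0.05, against 16.4% of all tested genes in either direction. The gene C1ra, for a protease of the C1 complex, averaged 2.56 ± 1.16 CPM in the WT and 4.09 ± 2.13 CPM in the KO libraries (0.67, SE 0.50, adjusted p = 0.554). C2, a component that the C1 complex cleaves, was at 1.24 ± 0.274 and 1.45 ± 0.456 CPM (0.22, SE 0.32). The central component C3, like Mrc1, was lowest in KO replicate 3 and WT replicate 1, at 8.53, 11.7 and 61.2 CPM in the WT libraries and at 126, 81.9 and 5.66 CPM in the KO libraries (1.39, SE 1.098, adjusted p = 0.577). C3, singled out after its values were seen, is made by many cell types. Itgax, which encodes the alpha X chain of complement receptor 4 and marks macrophages inside the islet, was higher in all KO than in all WT libraries, at 2.24, 1.64 and 2.001 CPM in the WT libraries and at 4.11, 2.71 and 2.68 CPM in the KO libraries. Its log2 fold change of 0.69 (SE 0.26) had an unadjusted p of 0.0313 in edgeR and did not pass (adjusted p = 0.265), and 11.3% of all tested genes had such a higher, non-overlapping KO group.

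Laptm5 (chromosome 4, 130469040 to 130492056), a lysosomal membrane protein of blood lineage cells that limits antigen receptor signals in lymphocytes, stood apart from the others. It was at 48.0, 67.3 and 19.7 CPM in the WT libraries and at 55.3, 38.3 and 35.6 CPM in the KO libraries. WT replicate 3, which was among the upper libraries for Csf1r, Lyz2 and C1qb, was the lowest for Laptm5. Its fold change was -0.06 on the log2 scale (SE 0.41, adjusted p = 0.958), the only negative one, and it turned to 0.35 without WT replicate 2.

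Some genes of leukocytes in general or of B cells were low in the same WT library. Ptprc encodes the pan-leukocyte antigen CD45 and is also in the list of other macrophage markers described below. It was at 104, 101 and 21.3 CPM in the WT libraries and at 61.5, 36.2 and 35.7 CPM in the KO libraries. Cd79a, a chain of the B cell receptor complex, was at 53.8, 52.3 and 11.7 CPM in the WT libraries and at 31.3, 22.8 and 26.1 CPM in the KO libraries. WT replicate 3 was the lowest library for all 3 genes. A list of 10 T and B cell genes, all tested, summed to 77.4 to 419 CPM in WT and 146 to 1123 CPM in KO. None was called by edgeR, against 0.170% of all tested genes. The highest sum was that of KO replicate 1, with 982 CPM of the immunoglobulin gene Ighm. The T cell receptor complex genes were low in all libraries: Cd3g averaged 2.33 ± 1.32 CPM in the WT and 2.44 ± 1.65 CPM in the KO libraries, and Cd3e averaged 1.32 ± 0.627 CPM in the WT and 1.60 ± 0.728 CPM in the KO libraries. The part of lymphocytes in the Laptm5 level was not tested.

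**Figure D3:**
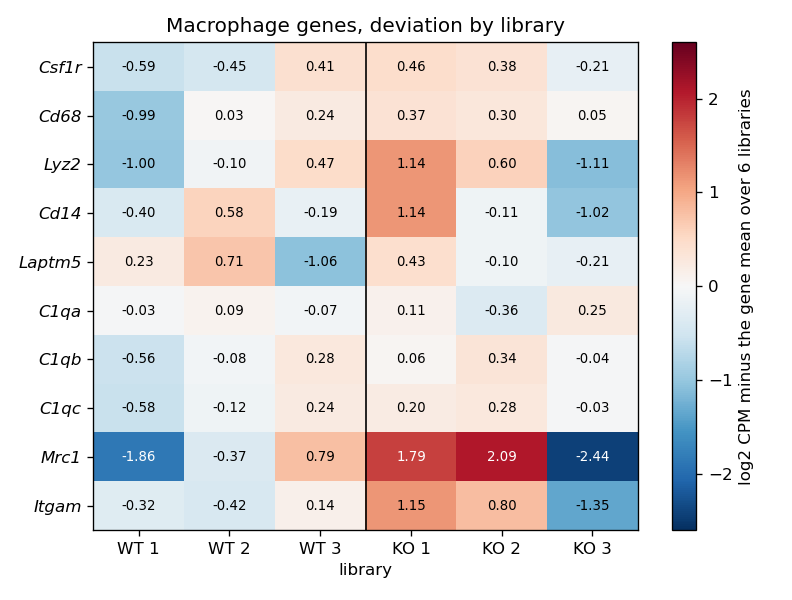
Deviation of each gene (rows) in each library (columns) from the gene's own mean over the 6 libraries, in log2 CPM, red above and blue below. WT replicate 1 and KO replicate 3 are low for Lyz2 (-0.996 and -1.11) and Mrc1 (-1.86 and -2.44), while C1qa and Laptm5 do not follow that order.

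**Figure D4:**
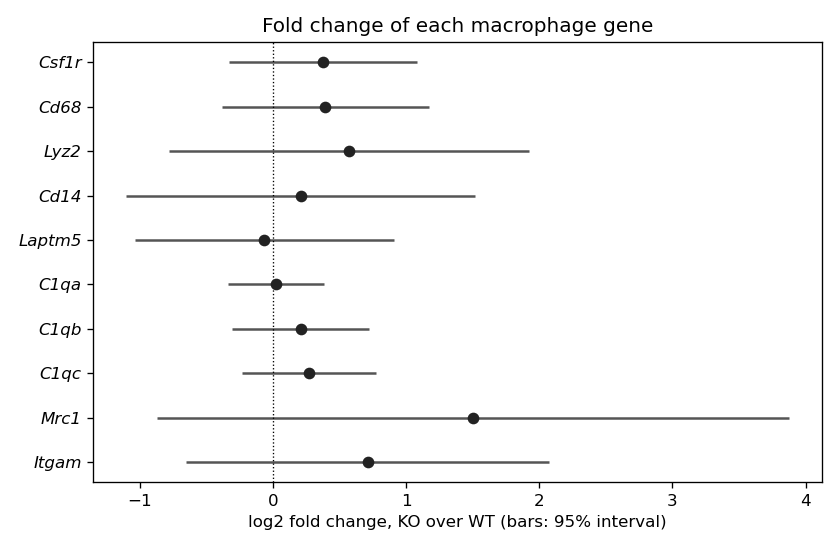
Fitted log2 fold change of KO over WT (x axis, 0 dotted) for each of the 10 genes, with 95% intervals from edgeR's quasi-likelihood fit over 3 WT and 3 KO libraries. Every interval includes 0, and that of Mrc1, from -0.87 to 3.87, is the widest.

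Levels between genes can be set side by side only per exonic length, as CPM per kb of exon. Over all 6 libraries Lyz2 was at 49.97 ± 28.7 (SD, n = 6) and C1qa at 43.2 ± 5.99, and the order of these neighbours differed between libraries, each being above the other in 3 of 6. Laptm5 at 11.6 ± 4.39 and C1qb at 11.5 ± 2.36 could not be ordered either. C1qa was above both in 6 of 6 libraries. Below them, C1qb exceeded C1qc in 6 of 6 with no overlap of their ranges. C1qc at 5.11 ± 1.04 exceeded Csf1r at 3.73 ± 1.17 in 6 of 6 libraries, although their ranges overlapped, and Csf1r likewise exceeded Cd68. Cd68 at 2.03 ± 0.556 and Cd14 at 1.48 ± 0.820 overlapped, with Cd68 above in 4 of 6. Every Cd14 value was above every Itgam value. Itgam at 0.264 ± 0.155 and Mrc1 at 0.244 ± 0.236 were the lowest, with overlapping ranges and Itgam above in 5 of 6. The biological coefficient of variation, edgeR's estimate of the spread between libraries of a group beyond counting, was 0.825 for Mrc1, 0.494 for Itgam, 0.483 for Cd14 and 0.477 for Lyz2, against a median of 0.157 over all tested genes and 0.149 for C1qa.

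Other macrophage markers gave no call either. Of 18 such genes 16 were tested, and edgeR called 0 of them, with a median log2 fold change of 0.05. At an unadjusted p below 0.05 in edgeR, 2 were higher and 1 was lower in KO, against 16.4% of all tested genes in either direction. Adgre1, which encodes the macrophage antigen F4/80, averaged 4.17 ± 0.652 CPM in the WT and 5.002 ± 0.447 CPM in the KO libraries (0.26, SE 0.18, adjusted p = 0.516). Fcgr1, the high-affinity receptor for IgG, was at 0.670 ± 0.282 and 1.05 ± 0.551 CPM (0.64, SE 0.52, adjusted p = 0.587). The pore-forming phagocyte gene Mpeg1, singled out after its values were seen, was at 20.7 ± 5.79 and 29.7 ± 3.08 CPM (0.52, SE 0.20, adjusted p = 0.281). Cx3cr1, the fractalkine receptor of resident macrophages and monocytes, stood at 5.51 ± 0.916 and 5.37 ± 0.805 CPM. Among 10 tested Fc receptors and signalling adaptors edgeR called 0, with 0 at an unadjusted p below 0.05, against 16.4% of all tested genes. Of these 10 fold changes 5 were positive. Fcgr2b, the inhibitory Fc receptor gene, was at 5.66 ± 2.92 and 4.09 ± 3.15 CPM.

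Lysosomal genes, which macrophages use heavily but which all cells express, leaned higher in KO without passing the test over all genes. The fold changes of all 12 listed genes were positive (median 0.24 on the log2 scale), and for 10 of 12 all KO libraries lay above all WT libraries, against 11.3% of all tested genes. Over all genes edgeR called 0 of them, but it called 0 of all 15915 tested genes higher in KO. In edgeR 9 of 12 were higher at an unadjusted p below 0.05, against 6.99% of all tested genes. That number fell to 3 with sex as a covariate (against 2.90%) and to 5 without WT replicate 1 (against 4.50%). DESeq2 called 4 of the 12 higher, against 1.37% of the genes for which it gave an adjusted p. The cathepsin genes Ctsb, at 289 ± 11.03 and 338 ± 8.82 CPM (0.23, SE 0.07, adjusted p = 0.204), and Ctsd, at 145 ± 7.95 and 167 ± 5.86 CPM (0.20, SE 0.07, adjusted p = 0.242), are examples. The membrane protein gene Lamp2 had the largest difference, at 280 ± 35.0 in WT and 376 ± 29.5 CPM in KO (0.42, SE 0.11, adjusted p = 0.171). Ctss, a cathepsin of macrophages and other antigen-presenting cells, was 1 of the 2 with overlapping groups, at 33.9 ± 3.88 and 36.0 ± 4.79 CPM (0.09, SE 0.13). The summed level of the list was 1794 to 2007 CPM in WT and 2218 to 2317 CPM in KO, and KO replicate 3, where Lyz2 and Mrc1 were lowest, had the highest sum. The summed endocrine list, at 272016 to 289197 CPM in WT and 328528 to 333364 CPM in KO, had the same split. Of its 10 genes only Ins1 and Ins2 had all KO libraries above all WT libraries, and 4 fold changes were negative. The sum of 10 endothelial genes, at 412 to 520 CPM in WT and 589 to 609 CPM in KO, also split, as did 5 of the 10 singly. Of all tested genes, 11.3% split this way. The part of endocrine and endothelial cells in the lysosomal difference was not tested.

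**Figure D5:**
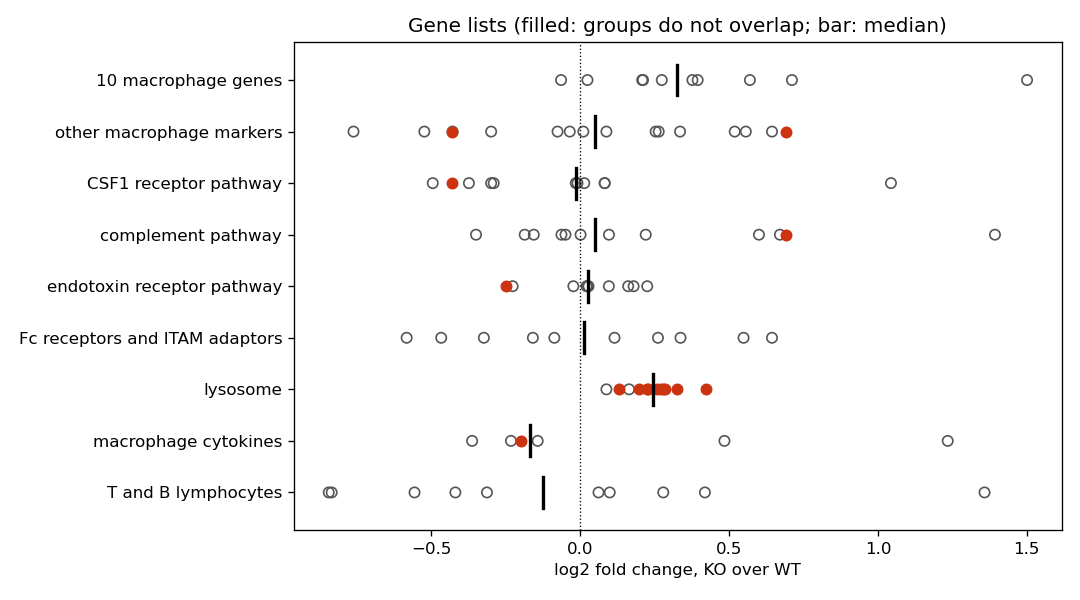
Log2 fold change of KO over WT (x axis, 0 dotted) for the tested genes of 9 lists (rows). Each circle is a gene, filled red where the KO and WT libraries do not overlap, and bars are list medians. The lysosomal genes lie between 0.09 and 0.42 with 10 of 12 filled, and none of the 10 macrophage genes is filled.

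Across the transcriptome, the genes whose pattern was most like the mean of the 10 were found by Pearson's r over the 6 libraries among 12777 genes with a mean of at least 1 CPM. These r values are a description, since all points come from the same 6 libraries and so many genes were ranked. The closest was Cdh11, a mesenchymal cadherin gene (r = 0.992), at 0.486, 0.967 and 1.07 CPM in the WT libraries and at 2.17, 1.83 and 0.566 CPM in the KO libraries. Also among the closest was Csf2rb, the shared beta chain of the GM-CSF and IL-3 receptors (0.984), at 1.42, 3.05 and 2.97 CPM in the WT libraries and at 8.91, 5.42 and 1.02 CPM in the KO libraries, whose reads may be shared with its close copy Csf2rb2. The chromatin protein gene Hmgb1 (0.983), the decoy receptor gene Tnfrsf23 (0.982), the matrix protein gene Prelp (0.982), the scavenger receptor gene Colec12 (0.981) and the membrane complex gene Emc4 (0.980) were likewise close. These 7 genes had overlapping genotype groups, with adjusted p from 0.484 to 0.675 in edgeR. They were picked for likeness to a mean whose own groups overlapped, so this is no separate result. That mean does not stand for every member: r with the mean of the other members was -0.42 for C1qa and -0.06 for Laptm5.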

How the data were processed

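RNA from isolated islets was sequenced in 3 WT and 3 KO libraries. The authors deposited raw read counts, whole numbers that had not been normalized, for 53670 genes per library; columns were matched to samples by name. HTSeq, HISAT2 2.1.0, CASAVA 1.8.2, DESeq2 and the build mm9 are listed, per the submitters' processing notes; annotation, counting options and use of strand were not given in the sources used here. Per the labels' protocols, RNA was extracted with a QIAGEN Micro kit and libraries made with a TruSeq RNA kit.

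Counts were analysed with R 4.3.3 and edgeR 4.0.16: filterByExpr left 15915 genes, TMM scaled the libraries, and the quasi-likelihood F-test with Benjamini-Hochberg adjustment over all tested genes was called below 0.05. Fold changes set KO over WT on the log2 scale. Their SE is the fold change divided by the square root of F, and 95% intervals use the fit's degrees of freedom. The step was tested on simulated counts. Non-overlap means all 3 KO libraries above, or all below, all 3 WT libraries. Exonic length and gene positions came from GENCODE vM1 on mm9, with length and GC content for 92.9% of tested genes. A count of 0 allows up to 3 counts, 0.110 to 0.117 CPM (unscaled), for counting error only.

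The 10 genes, the 14 other gene lists and the tests were chosen with earlier results of these data known. By rule the text names the 10, the first 2 tested genes of each list it describes or those called, defining tissue markers, and the 8 genes most alike in log2 CPM (prior count 2), leaving out predicted and sex-linked genes; some items the rule would name are not reported here. Other genes were chosen after their values were seen. The alternatives were DESeq2 1.42.0 (its test, or its size factors in edgeR), limma-voom (limma 3.58.1), 2 other filters, libraries scaled without the 10 most abundant genes, robust empirical Bayes, a replicate block, acinar and sex covariates, length and GC offsets, and leaving out each library. Figures came from matplotlib 3.10.9 under Python 3.11.15.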

Additional observations from a re-analysis of the deposited data

How the results depend on the processing

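None of the 10 macrophage genes was called under any alternative run, although DESeq2 gave no adjusted p for 4 of them, and their median log2 fold change stayed positive, from 0.10 without WT replicate 1 to 0.58 without WT replicate 3. Over all genes, the 27 calls became 556 in DESeq2 and 0 in limma-voom, with the acinar or sex covariate and with the length and GC offsets, and ran from 0 to 89 when 1 library was left out (89 without WT replicate 3, 5 without KO replicate 1). With the replicate number as a block the count was also 0. The labels share numbers across genotypes, but same-numbered libraries deviated together only at r = 0.18, 0.058 and 0.032, not every library correlated best with its own number, and the main test therefore has no block.

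The sign of Laptm5 changed to 0.081 in limma-voom, 0.075 with the replicate block, 0.31 with the acinar covariate, 0.30 with the sex covariate and 0.0031 with the offsets, and leaving out a library gave -0.41 to 0.35. C1qa was at -0.016 with the acinar covariate and at -0.10 to 0.18 with a library left out, and Cd14 at -0.56 to 0.59. The count of the 10 genes with groups that do not overlap ran from 0 to 4 on leaving out a library. The 4 without WT replicate 3 were Csf1r, Cd68, C1qb and C1qc, all higher in KO, as were 20.2% of tested genes there. The 4 without KO replicate 3 were Cd68, Lyz2, Mrc1 and Itgam, against 16.3%. The only one without KO replicate 2 was C1qa, against 14.8%. The difference in the share of counts, KO minus WT, was 0.0024 percentage points, and -0.00076 without KO replicate 1. The causes were not tested. For the lysosomal genes, alternatives chosen after seeing the data gave medians of 0.21 to 0.27 and 9 to 11 non-overlapping genes, all higher in KO, where 8.64% to 20.2% of tested genes were. At 4 to 91 counts per library, counting error limits Mrc1 most.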

Other observations

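Transcripts of neutrophils were close to absent. Of 10 neutrophil and monocyte genes only Ly6c2, Ccr2 and Plac8 had enough counts to be tested, the neutrophil antigen gene Ly6g had 0 counts in all 6 libraries, and the whole list summed to 4.67 to 11.9 CPM in WT and 4.30 to 15.0 CPM in KO. The monocyte antigen gene Ly6c2 averaged 0.534 ± 0.0886 CPM in the WT and 1.07 ± 0.577 CPM in the KO libraries (SD, n = 3 each; log2 fold change 0.99, SE 0.48, adjusted p = 0.360 in edgeR), and Ccr2, the receptor that brings monocytes into tissue, was at 2.07 ± 1.09 and 2.84 ± 2.88 CPM. Dendritic cell genes summed to 11.2 to 13.3 CPM in WT and 7.58 to 16.1 CPM in KO, with the growth factor receptor gene Flt3 at 1.12 ± 0.682 and 1.73 ± 0.700 CPM and the transcription factor gene Zbtb46 at 3.87 ± 0.112 and 3.71 ± 0.458 CPM. Endothelial genes, 10 tested and none called by edgeR, summed to 412 to 520 CPM in WT and 589 to 609 CPM in KO, with 7 of 10 higher in KO at an unadjusted p below 0.05, against 6.99% of all tested genes. The vascular cadherin gene Cdh5 was 1 of these 7 (log2 fold change 0.45, SE 0.11, adjusted p = 0.150), and the adhesion molecule gene Pecam1, with overlapping groups, was not (0.23, SE 0.11, adjusted p = 0.345).

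Inflammatory cytokine genes were scarcely detected. Of 12 cytokine and growth factor genes 6 were tested, and Tnf, Il6, Il10, Ccl2, Ccl3 and Cxcl2 had too few counts. Il1b, which encodes interleukin-1 beta, was at 0.898, 0.558 and 0.445 CPM in the WT libraries and at 3.05, 0.878 and 0.566 CPM in the KO libraries (log2 fold change 1.23, SE 0.67, adjusted p = 0.413 in edgeR), so KO replicate 1 alone stood out. KO replicate 1 also held 51 counts of Cd163, a haemoglobin scavenger receptor of macrophages, where the other 5 libraries held 2 to 5. Tgfb1, the growth factor gene, was at 10.7 ± 2.92 and 8.35 ± 0.849 CPM.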
